A study of Cyprinus carpio with 18 samples.

Results

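The comparison sets 3 small RNA libraries of common carp (Cyprinus carpio) larvae, taken 1 day after hatching, against 3 libraries of embryos at hatching, 64 h after fertilization. These 6 of the 18 libraries of the series were taken by their stage labels. The comparison itself was chosen with earlier results of these data known. All fish were wild type and of the FFRC No.2 strain, a variety selected over generations from Jian, Huanghe and Heilongjiang carp, and the embryos came from natural spawning. The labels name the tissue as embryo at both stages. Per the labels' protocols, RNA within a stage was pooled in equal amounts, and nothing says that the libraries of a stage come from separate spawnings. P-values can speak only for how these libraries vary, and that variation may be technical.

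MicroRNAs are short RNAs cut from hairpin precursors, whose arms are called 5p and 3p. They pair, mainly through the seed at bases 2 to 8, with messenger RNAs and repress them. In fish embryos, microRNAs of the early embryo give way during late development to those of differentiating tissues such as muscle, nerve, cartilage, gut and liver. Hatching frees the embryo from its egg membrane, and the young larva at first lives on yolk while its gut, liver and jaw skeleton go on forming.

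The larva libraries held 5642188, 6252718 and 8427601 counts, against 6694561, 5039818 and 4964459 counts in the hatching libraries, so depth was of the same order at both stages. The 6 libraries list 2293 small RNAs, 144 of them named carp microRNAs and 2149 predicted ones, which the deposited tables identify by sequence only. Named microRNAs made up 90.6% to 91.8% of the counts of a larva library, against 89.8% to 90.3% of those of a hatching library. Of the list, 612 were abundant enough to test, 142 named and 470 predicted. Levels are given as CPM, the library's counts scaled to a common total and by TMM factors, in the order of the libraries' numbers.

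A predicted small RNA is listed in a library only from 5 counts up, so that a 0 means not listed. The 10 predicted small RNAs with the largest changes by the naming rule are shown here because their sequence is the one identity the data give them. Letters run 5′ to 3′ as deposited, with T for U, and capitals mark the seed. The first 5 were higher in the larva.
predicted-2: aCCTTGGCtctagactgcttact
predicted-1: aCCGTGGCtttagattgttact
predicted-8: tGAGGTAGttggttgtatggtt
predicted-18: aCGGGTTAggttcttgggag
predicted-17: tCCCTGAGacccttaacctgtg
The other 5 were lower in the larva.
predicted-6: gTGTGGAGagccgtttgttac
predicted-13: tGTGCAAAtccacgcaaaactcg
predicted-12: tGTGCAAAtccatgcaaaactcg
predicted-5: tGATTGTCcaaacgcaattcttg
predicted-9: aGGTTGGGattggtagcaatgct

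Across all 612, 49 small RNAs passed an adjusted p of 0.05 in edgeR's quasi-likelihood test, which is 8.01%. The larva was higher for 32 of them (5.23%) and lower for 17 (2.78%). Among named microRNAs 22 were higher and 3 lower, with a median log2 fold change of 0.27 over all 142. Among predicted ones 10 were higher and 14 lower, with a median of -0.14 over all 470. In 225 of the 612 (36.8%) the values of the 3 larva libraries and of the 3 hatching libraries did not overlap, and this held for each of the 25 named microRNAs past the threshold. Named microRNAs, from which all lists below are drawn, had larger shares. Of the 142, 17.6% were called, 67 had all larva libraries above every hatching library and 24 had them below. With other scalings of all 612 the split of named calls moved little. It was 24 higher and 4 lower with RLE size factors, and 23 and 4 with library totals. With named microRNAs scaled and tested alone, 37 were higher and 40 lower, and their median moved to -0.13. That fit also changes the rows behind the estimate of variation and the adjustment of p, and the part of each was not tested. Changes below are relative to the scale set by all 612.

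The calls rest on few libraries. Without larva 1, 2 or 3, 34 (20 higher), 4 (2 higher) or 73 (46 higher) small RNAs were called, of which 27, 4 and 40 were among the 49. Without hatching 1, 2 or 3, 7, 9 or 2 were called, of which 6, 6 and 1 were among the 49. Of named microRNAs, 14, 0 and 38 were called without larva 1, 2 or 3, and 1, 2 and 0 without hatching 1, 2 or 3. A fit without 1 library leaves 3 residual degrees of freedom in place of 4. None of the 49 changed direction in any of these fits. With no filter on low counts, the calls of miR-17-3p, miR-27c-3p, miR-218b, miR-137, miR-10d and miR-729 were lost, at adjusted p of 0.0869, 0.267, 0.0869, 0.316, 0.225 and 0.277. With named microRNAs alone, those of miR-183, miR-182-5p, miR-27c-3p and miR-10d were lost, at 0.121, 0.0708, 0.155 and 0.945. With limma voom, those of miR-726, miR-10d and miR-729 were lost, at 0.0554, 0.0554 and 0.315.

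**Figure D1:**
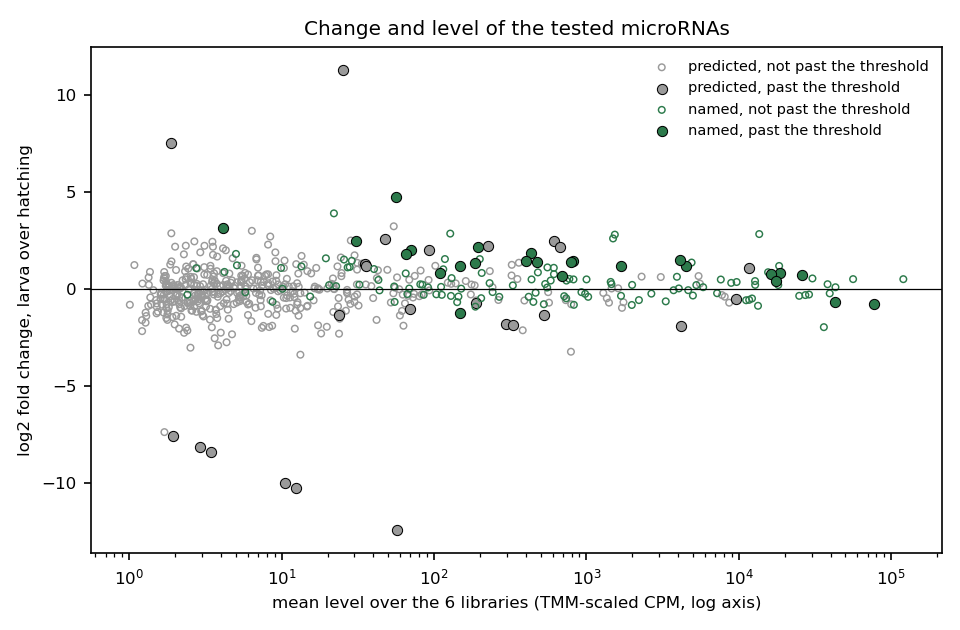
Log2 fold change, larva over hatching, of the 612 tested small RNAs against their mean level over the 6 libraries (TMM-scaled CPM, log axis). Named microRNAs are green and predicted ones grey, and filled points are the 49 past the threshold. The 8 filled grey points beyond 7 on either side are predicted small RNAs that no library of one stage lists.

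Skeletal and mesenchymal microRNAs were the list with the most members higher in the larva. The list held 6 arms of 4 microRNAs, 4 of which rose and none of which fell, and all 6 had larva libraries above every hatching library. Their median log2 fold change was 1.38, against -0.01 over all 612 and 0.27 over the 142 named ones. In bulk RNA, more cells of a type and more of a microRNA per cell cannot be told apart, here and for every tissue below.

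miR-140-3p, from a cartilage microRNA that shapes the palate skeleton in zebrafish, measured 5117, 4592 and 8443 CPM in the larva, against 2044, 2424 and 1939 CPM at hatching (log2 fold change 1.50 ± 0.27 SE, adjusted p = 0.0313). The other arm of this hairpin, miR-140-5p, measured 424, 472 and 884 CPM in the larva, against 192, 269 and 199 CPM at hatching and missed the threshold (log2 fold change 1.43 ± 0.34 SE, adjusted p = 0.0623). miR-455, a chondrocyte microRNA in mammals, measured 609, 592 and 855 CPM in the larva, against 256, 281 and 259 CPM at hatching (log2 fold change 1.37 ± 0.18 SE, adjusted p = 0.0208). In each of these 3 arms the lowest larva library stood above the highest hatching library, and larva 3 was the highest library.

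miR-199 and miR-214 are made from a shared transcript in mesenchyme of the mouse. miR-214 measured 944, 946 and 1548 CPM in the larva, against 456, 405 and 454 CPM at hatching (log2 fold change 1.39 ± 0.24 SE, adjusted p = 0.0276). miR-199-3p measured 5390.0, 5150.1 and 8164 CPM in the larva, against 2753, 2912 and 2736 CPM at hatching (log2 fold change 1.15 ± 0.20 SE, adjusted p = 0.0313). The 5p arm, miR-199-5p, had the highest mean of all at both stages, at 143936, 134035 and 143185 CPM in the larva, against 92328, 119597 and 86914 CPM at hatching. In hatching 1 and 3 it stood below miR-10b. Its groups did not overlap, yet it missed the threshold (log2 fold change 0.49 ± 0.14 SE, adjusted p = 0.1004). With both arms of miR-199, the list held 15.7%, 14.5% and 15.4% of counts in the larva, against 9.77%, 12.7% and 9.66% at hatching.

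**Figure D2:**
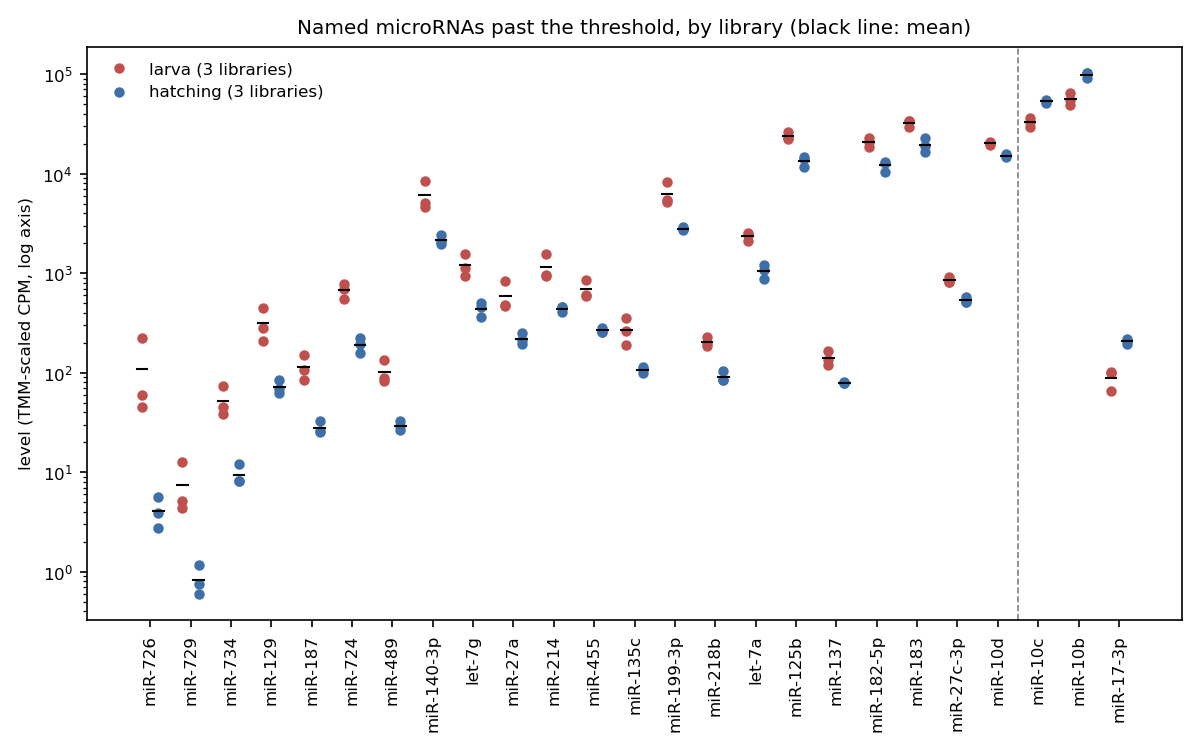
Level of each of the 25 named microRNAs past the threshold in each library (TMM-scaled CPM, log axis), larva left and hatching right, with the stage mean as a black line. The 22 left of the dashed line were higher in the larva and the 3 right of it lower. miR-726 has the widest gap between stages, and its larva 3 point lies apart from the other larva points.

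The let-7 family accompanies cell differentiation in many animals. In the let-7 list 2 of 5 members rose, none fell, and all 5 had larva libraries above every hatching library (median 1.02). With named microRNAs scaled alone, 4 members rose. let-7a measured 2089.8, 2409 and 2516 CPM in the larva, against 1216, 864 and 1079.9 CPM at hatching (log2 fold change 1.15 ± 0.17 SE, adjusted p = 0.0252). let-7g measured 925, 1120.0 and 1561 CPM in the larva, against 496, 365 and 454 CPM at hatching (log2 fold change 1.45 ± 0.24 SE, adjusted p = 0.0276). Reads of let-7 members differ by few bases and could be shared between them, so single members are less certain than their sum. The 5 named members together held 0.408%, 0.473% and 0.484% of counts in the larva, against 0.256%, 0.186% and 0.238% at hatching.

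Of the 4 members of the miR-99, miR-100 and miR-125 list, 1 rose and none fell. This was miR-125b, a relative of the worm timing microRNA lin-4, at 22988, 22009.9 and 26229 CPM in the larva, against 14500.3, 11534 and 13911 CPM at hatching (log2 fold change 0.83 ± 0.13 SE, adjusted p = 0.0263). miR-100 measured 30751, 31763 and 45270.2 CPM in the larva, against 26954, 21409 and 26187 CPM at hatching (log2 fold change 0.53 ± 0.19 SE, adjusted p = 0.180). Both had every larva library above every hatching library, as had the other 2 members of the list. The list held 7.33%, 7.45% and 8.87% of counts in the larva, against 6.03%, 5.12% and 6.02% at hatching.

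Sensory microRNAs of hair cells and photoreceptors, encoded together as the miR-183, miR-96 and miR-182 cluster in vertebrates, were higher in the larva for 2 of 4 arms, and none fell. With named microRNAs scaled alone, none passed. miR-183 measured 29310.4, 33573 and 33426 CPM in the larva, against 22983, 16517 and 18975 CPM at hatching (log2 fold change 0.72 ± 0.15 SE, adjusted p = 0.0462). miR-182-5p measured 18439.7, 20862 and 22754 CPM in the larva, against 12724, 10339.6 and 13123 CPM at hatching (log2 fold change 0.78 ± 0.14 SE, adjusted p = 0.0313). The 3p arm of miR-182 measured 868, 812 and 589 CPM in the larva, against 443, 262 and 353 CPM at hatching (log2 fold change 1.10 ± 0.25 SE, adjusted p = 0.0606). All 3 arms had larva libraries above every hatching library. Without larva 3, the changes of miR-183 and miR-182-5p were 0.69 ± 0.17 (adjusted p = 0.0958) and 0.70 ± 0.14 (adjusted p = 0.0573).

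Named brain microRNAs did not move as a block, and predicted sequences were not matched to this or any other list. Of 11 tested members 2 rose and none fell, and the median was 0.24. Scaled alone, named members of the list gave 4 that rose and 3 that fell. miR-218b, known from motor neurons, measured 185, 199 and 226 CPM in the larva, against 104, 84.9 and 85.1 CPM at hatching (log2 fold change 1.15 ± 0.15 SE, adjusted p = 0.0208). miR-137, known from maturing neurons, measured 119, 135 and 165 CPM in the larva, against 79.9, 79.0 and 78.4 CPM at hatching (log2 fold change 0.82 ± 0.16 SE, adjusted p = 0.0398). Both had larva libraries above every hatching library. The abundant miR-9, of neural progenitors, had lower means in the larva without passing the threshold. miR-9-5p measured 34548, 34774 and 39352 CPM in the larva, against 41255, 45525 and 41343 CPM at hatching (log2 fold change -0.24 ± 0.10 SE, adjusted p = 0.232). miR-9-3p measured 24568, 27743 and 25406 CPM in the larva, against 30902, 37819 and 26754 CPM at hatching, with overlapping groups (log2 fold change -0.30 ± 0.15 SE, adjusted p = 0.345). Chosen after its values were seen, miR-128, a microRNA of mature neurons in the mouse brain, lay just outside the threshold at 25412, 25285 and 25743 CPM in the larva, against 12893, 7308 and 13639 CPM at hatching (log2 fold change 1.18 ± 0.25 SE, adjusted p = 0.0508). As a share of counts the list was alike at both stages, at 8.71%, 8.97% and 8.85% of counts in the larva, against 8.72%, 9.35% and 8.75% at hatching.

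Muscle microRNAs gave no member past the threshold of 5 tested (median 0.17), and with named microRNAs scaled alone 1 fell. miR-206, of skeletal muscle, measured 46050.5, 44468 and 42091 CPM in the larva, against 43411, 37792 and 44413 CPM at hatching, with overlapping groups (log2 fold change 0.08 ± 0.10 SE, adjusted p = 0.784), and its sign turns when named microRNAs are scaled alone. miR-1, of heart and skeletal muscle, measured 8281, 8735 and 9559 CPM in the larva, against 6390.4, 7056 and 5657 CPM at hatching, without overlap (log2 fold change 0.48 ± 0.12 SE, adjusted p = 0.0702). miR-143, of smooth muscle and heart, measured 17273, 16783 and 26012 CPM in the larva, against 12327, 10239 and 10701 CPM at hatching, also without overlap, and missed the threshold (log2 fold change 0.85 ± 0.21 SE, adjusted p = 0.0644). Without larva 3, the change of miR-143 was 0.61 ± 0.10 (adjusted p = 0.0381), and it missed the threshold without any other single library.

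MicroRNAs of the Hox clusters moved both ways. These microRNAs lie among the Hox genes, which pattern the body axis, and repress some of them in zebrafish. Of 5 members 2 fell and 1 rose, and with named microRNAs scaled alone 4 fell and none rose. miR-10b, the second most abundant microRNA at hatching, measured 55179, 64878 and 48951 CPM in the larva, against 102080.0, 102203 and 91727 CPM at hatching (log2 fold change -0.81 ± 0.13 SE, adjusted p = 0.0274). miR-10c measured 32654, 36181 and 29361 CPM in the larva, against 54353, 53268 and 51580.1 CPM at hatching (log2 fold change -0.70 ± 0.11 SE, adjusted p = 0.0256). In both, every larva library stood below every hatching library. miR-10d measured 20116, 20645 and 19559 CPM in the larva, against 15777, 14978 and 14712 CPM at hatching (log2 fold change 0.41 ± 0.08 SE, adjusted p = 0.0415), a small rise that had all larva libraries on top. It fell short of the threshold with library totals, RLE scaling or limma voom, and shrank to 0.02 ± 0.16 (adjusted p = 0.945) with named microRNAs scaled alone. Since miR-10 members are near copies of one another, reads may be shared between them. The list held 10.9%, 12.2% and 9.33% of counts in the larva, against 17.3%, 17.3% and 16.7% at hatching.

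The miR-17-92 clusters, known for proliferating cells, had lower levels in the larva for most members. Of 13 tested named members 1 fell and none rose, 8 had all larva libraries below every hatching library, and the median was -0.59. Whether predicted sequences belong to these clusters was not tested. When named microRNAs were scaled alone, 11 fell and none rose. The named member that fell in the main fit was miR-17-3p, the less abundant arm of its hairpin, at 98.2, 101 and 65.4 CPM in the larva, against 208, 218 and 193 CPM at hatching (log2 fold change -1.22 ± 0.21 SE, adjusted p = 0.0276). The main arm miR-17-5p measured 586, 691 and 509.5 CPM in the larva, against 959, 1396 and 818 CPM at hatching (log2 fold change -0.83 ± 0.24 SE, adjusted p = 0.109). miR-363, from a paralogous cluster, measured 10850.2, 10669 and 6718 CPM in the larva, against 17192, 16625 and 18084 CPM at hatching (log2 fold change -0.88 ± 0.21 SE, adjusted p = 0.0623). Without larva 3 the change of miR-363 was -0.69 ± 0.08 (adjusted p = 0.0157), and it missed the threshold without any other single library. miR-92a measured 27024, 21230.2 and 17017 CPM in the larva, against 29875, 24235 and 29967 CPM at hatching, with overlapping groups (log2 fold change -0.37 ± 0.20 SE, adjusted p = 0.376). The list held 5.71%, 4.93% and 3.63% of counts in the larva, against 7.43%, 6.26% and 7.74% at hatching.

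The miR-23, miR-24 and miR-27 clusters, known for vessel growth, had 2 of 7 members higher in the larva and none lower (median 0.67). miR-27a measured 474, 462 and 825 CPM in the larva, against 251, 214 and 196 CPM at hatching (log2 fold change 1.42 ± 0.28 SE, adjusted p = 0.0398). miR-27c-3p measured 817, 811 and 912 CPM in the larva, against 570.3, 515 and 508 CPM at hatching (log2 fold change 0.67 ± 0.11 SE, adjusted p = 0.0276). Both had no overlap between stages. Its other arm, miR-27c-5p, was scarce, at 27.8, 24.6 and 19.1 CPM in the larva, against 20.4, 24.2 and 20.5 CPM at hatching, with overlapping groups (log2 fold change 0.13 ± 0.26 SE, adjusted p = 0.875). The 2 most abundant members did not pass. miR-27d measured 15661, 13919.8 and 13969 CPM in the larva, against 12745, 8896 and 11439 CPM at hatching (log2 fold change 0.40 ± 0.16 SE, adjusted p = 0.218), and miR-23b measured 897, 955 and 1649 CPM in the larva, against 851, 767 and 887 CPM at hatching (log2 fold change 0.48 ± 0.27 SE, adjusted p = 0.378).

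**Figure D3:**
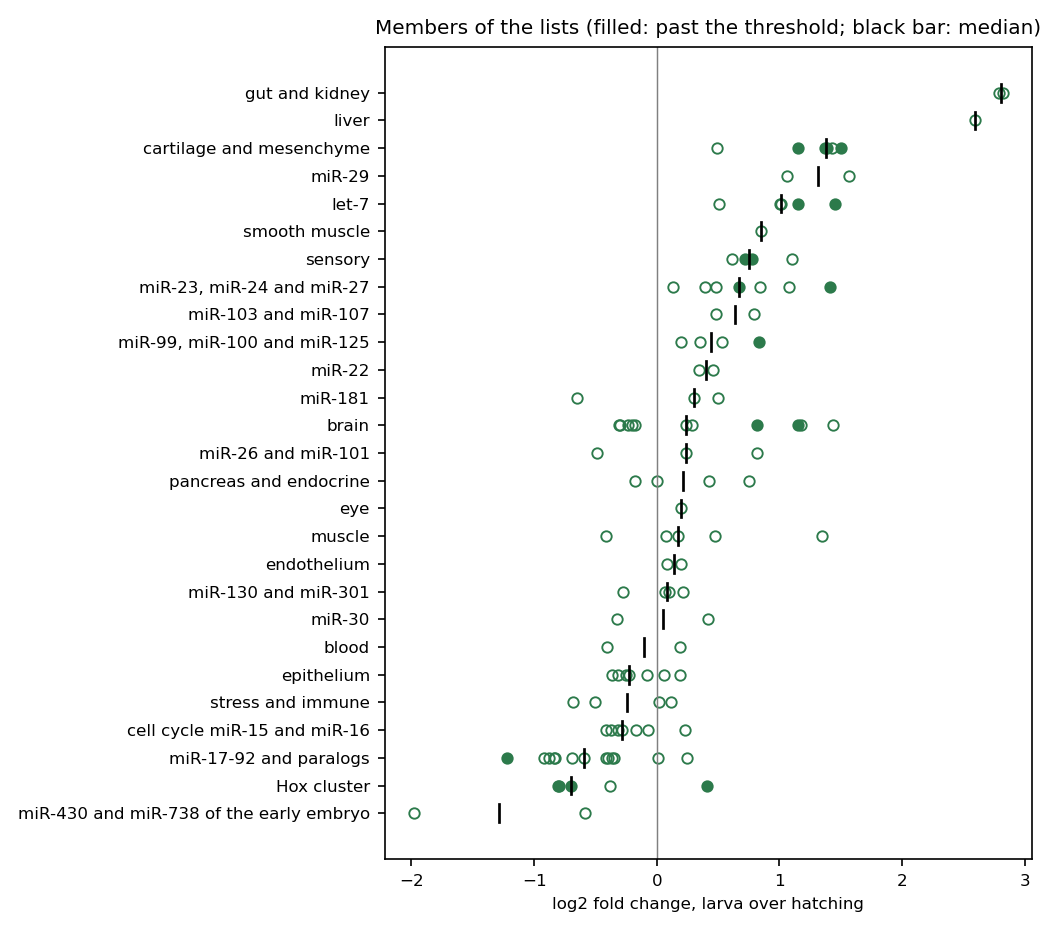
Log2 fold change, larva over hatching, of each tested member of the 27 lists, with lists ordered by their median (black bar). Filled points are the 17 members past the threshold, 14 higher and 3 lower, which fall in 8 lists. The cartilage and mesenchyme list has 4 filled points, all to the right of 0, and the gut, kidney and liver members lie farthest right with none filled.

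Named microRNAs outside every list held the largest rises. Of 31 tested, 8 rose and none fell, and their median was 1.21, against 0.19 for the 111 in a list. miR-726 measured 45.7, 60.2 and 221 CPM in the larva, against 3.90, 2.76 and 5.60 CPM at hatching (log2 fold change 4.73 ± 0.79 SE, adjusted p = 0.0276). Without larva 3, its change was 3.68 ± 0.37 (adjusted p = 0.0140). miR-129, known from nerve cells in mammals, measured 209.6, 283 and 449 CPM in the larva, against 84.4, 68.2 and 62.9 CPM at hatching (log2 fold change 2.13 ± 0.32 SE, adjusted p = 0.0256). miR-187 measured 85.1, 106 and 149.6 CPM in the larva, against 25.5, 25.6 and 32.8 CPM at hatching (log2 fold change 2.02 ± 0.27 SE, adjusted p = 0.0208). These 3 were scarce at hatching, and none of their larva libraries overlapped a hatching library.

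miR-724 measured 555, 690.1 and 773 CPM in the larva, against 221, 157 and 194 CPM at hatching (log2 fold change 1.82 ± 0.20 SE, adjusted p = 0.0188). miR-489, which keeps muscle stem cells quiescent in mice, measured 81.8, 87.7 and 133 CPM in the larva, against 32.7, 26.4 and 29.1 CPM at hatching (log2 fold change 1.78 ± 0.25 SE, adjusted p = 0.0225). The other 3 that rose were under the level set by the naming rule or outside its largest 10. miR-734 measured 38.8, 45.2 and 73.4 CPM in the larva, against 12.0, 8.08 and 8.11 CPM at hatching (log2 fold change 2.48 ± 0.36 SE, adjusted p = 0.0252). miR-135c measured 187, 264 and 351 CPM in the larva, against 98.6, 109 and 113 CPM at hatching (log2 fold change 1.32 ± 0.25 SE, adjusted p = 0.0391). miR-729 was near the floor of detection, at 5.13, 4.34 and 12.8 CPM in the larva, against 0.750, 0.591 and 1.16 CPM at hatching (log2 fold change 3.13 ± 0.64 SE, adjusted p = 0.0428). It was not called by limma voom or without larva 3, where its change was 2.47 ± 0.50 (adjusted p = 0.0560).

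Liver, gut and kidney microRNAs had the highest list medians, yet no member passed the threshold. All 3 did when named microRNAs were scaled alone. miR-122, the main microRNA of liver, measured 1380.1, 1343 and 4972 CPM in the larva, against 452, 364 and 459.7 CPM at hatching (log2 fold change 2.59 ± 0.60 SE, adjusted p = 0.0606). miR-192, of gut, liver and kidney, measured 10736, 10074 and 50703 CPM in the larva, against 3264, 3311 and 3552 CPM at hatching (log2 fold change 2.82 ± 0.73 SE, adjusted p = 0.0735). miR-194, which shares a precursor with miR-192 in vertebrates, measured 1085, 1098 and 5865 CPM in the larva, against 337, 418 and 408 CPM at hatching (log2 fold change 2.79 ± 0.78 SE, adjusted p = 0.0901). In all 3 every larva library was above every hatching library, and larva 3 was far above larva 1 and 2. Larva 3 held 3.65, 4.87 and 5.37 times the mean of larva 1 and 2 for miR-122, miR-192 and miR-194. Without larva 3, all 3 passed the threshold with smaller changes: 1.67 ± 0.13 (adjusted p = 0.00886) for miR-122, 1.62 ± 0.08 (adjusted p = 0.00566) for miR-192 and 1.49 ± 0.12 (adjusted p = 0.00886) for miR-194. No fit that left out another single library called any of them.

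miR-430, which clears maternal messenger RNAs in early fish embryos, was low in the larva. It measured 20979, 18338 and 4515 CPM in the larva, against 60294, 49054 and 63544 CPM at hatching, without overlap, and missed the threshold (log2 fold change -1.98 ± 0.58 SE, adjusted p = 0.105). Larva 3 held less than the other larva libraries, which were 4.35 times as high on average, and without it the change was -1.56 ± 0.16 (adjusted p = 0.0140). In fits without any other single library, miR-430 missed the threshold. With named microRNAs scaled alone, it stood at -2.30 ± 0.61 (adjusted p = 0.0210). miR-738, the other member of its list, measured 2887, 1767 and 648 CPM in the larva, against 1138, 4257 and 2559.5 CPM at hatching, with overlapping groups (log2 fold change -0.58 ± 0.69 SE, adjusted p = 0.766).

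Larva 3 stood apart from its stage. It was the highest larva library for 90 of the 142 named microRNAs, 16 were more than 2 times as high there as in the mean of larva 1 and 2, and 2, miR-430 and miR-738, were lower there by more than 2 times. Its median distance from the other 2 libraries of its stage was 0.42 on the log2 scale, against 0.26 for larva 1, 0.22 for larva 2 and 0.13 to 0.25 for the hatching libraries. It was also the deepest of the 6, and the part of depth in these values was not tested.

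**Figure D4:**
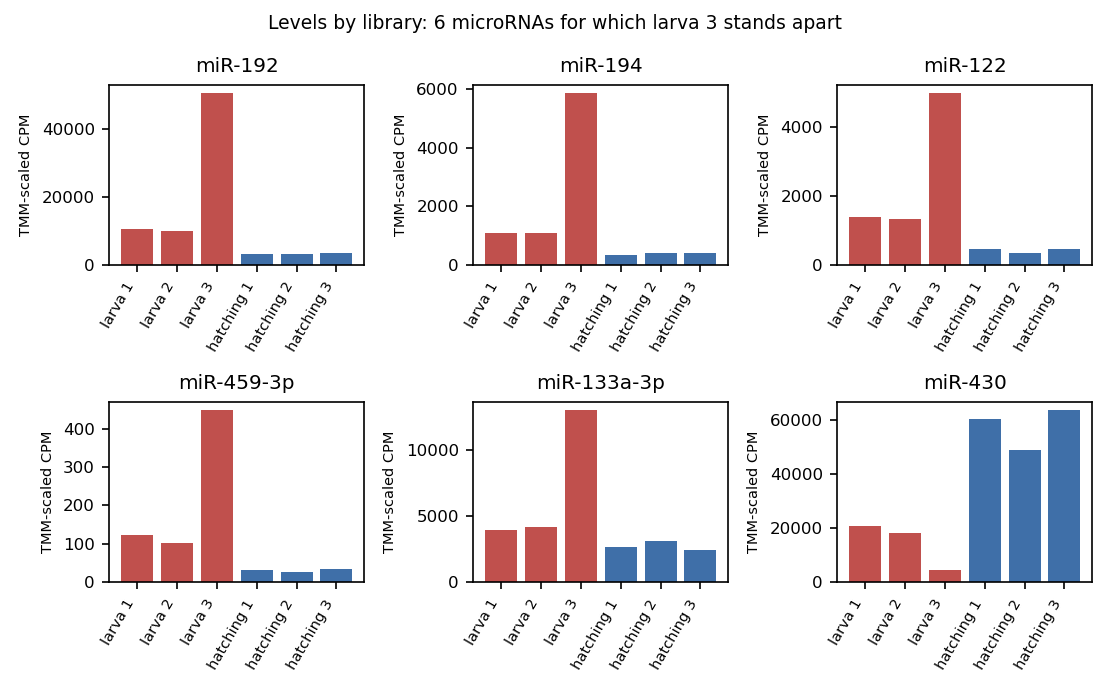
Level in each library (TMM-scaled CPM, axis from 0) of 6 microRNAs chosen after their values were seen because larva 3 stands apart, larva left and hatching right. miR-192 reads 50703 CPM in larva 3, against 10736 and 10074 in the other larva libraries, and miR-430 reads 4515 CPM in larva 3. For 5 of them the other larva libraries also lie above every hatching library, and for miR-430 below.

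The remaining lists gave no member past the threshold, here with their 2 most abundant members as log2 fold changes and adjusted p. With named microRNAs scaled alone, members of some of these lists did pass as lower: 2 in epithelium, 1 in blood, 2 in pancreas, 5 in the miR-15 and miR-16 family, 2 in the stress and immune list and 1 each in the miR-26, miR-30, miR-130 and miR-181 lists. In the miR-26 list 1 member also passed as higher. In epithelium, with 7 members and none past the threshold, miR-200a stood at 0.19 ± 0.14 (SE; adjusted p = 0.542) and miR-205, of basal epithelium, at -0.23 ± 0.22 (0.697). miR-184, of lens and cornea, stood at 0.20 ± 0.17 (0.628). For endothelial miR-126, the 3p arm stood at 0.08 ± 0.11 (0.804) and the 5p arm at 0.20 ± 0.14 (0.495). In the blood list miR-144, of red cells, stood at -0.40 ± 0.27 (0.474) and miR-142-5p, of white cells, at 0.19 ± 0.40 (0.880). In the pancreas list miR-375, of islet cells, measured 670.2, 635 and 998 CPM in the larva, against 462, 434 and 472 CPM at hatching, without overlap (log2 fold change 0.75 ± 0.20 SE, adjusted p = 0.0864), and miR-217, of the exocrine pancreas, stood at -0.17 ± 0.13 (0.548). The signs of miR-200a, miR-184, both miR-126 arms and miR-142-5p turn when named microRNAs are scaled alone.

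Among families without a tissue, miR-181a measured 64626, 71312 and 61344 CPM in the larva, against 45702, 53827 and 40288 CPM at hatching, without overlap (log2 fold change 0.50 ± 0.14 SE, adjusted p = 0.0872), and miR-181b stood at 0.30 ± 0.11 (SE; adjusted p = 0.181). miR-26a stood at 0.23 ± 0.11 (0.297) and miR-101b at -0.49 ± 0.21 (0.261). miR-30d stood at -0.33 ± 0.10 (0.131) and miR-30b at 0.42 ± 0.26 (0.439). miR-22a stood at 0.35 ± 0.12 (0.156) and miR-22b at 0.45 ± 0.16 (0.162). miR-29a stood at 1.57 ± 0.54 (0.159) and miR-29b at 1.06 ± 0.56 (0.355), both below 50 CPM in every library. miR-103 stood at 0.48 ± 0.18 (0.182) and miR-107 at 0.79 ± 0.26 (0.135).

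In the miR-15 and miR-16 family, known for restraining the cell cycle, miR-15b stood at -0.42 ± 0.12 (adjusted p = 0.109) and miR-16b at -0.07 ± 0.25 (0.942). In the miR-130 and miR-301 family miR-130c stood at 0.10 ± 0.13 (0.814) and miR-130b at 0.07 ± 0.15 (0.880). In the stress and immune list miR-21 stood at -0.50 ± 0.26 (0.349) and miR-146a at 0.02 ± 0.29 (0.984). The signs of miR-27c-5p, miR-181b, miR-26a, miR-22a, miR-30b, miR-130b, miR-130c and miR-146a turn when named microRNAs are scaled alone. A p above the threshold does not show that a microRNA was equal at both stages.

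Arms of one hairpin were compared as the log2 ratio of 3p to 5p counts in each library, for the 13 hairpins with both arms tested. For 3 of them the stages did not overlap, with an exact permutation test (two-sided) at 0.1 each, the smallest value that 3 against 3 libraries allow, and 0.433 after Benjamini-Hochberg adjustment over the 13. The ratio of miR-133a was 3.32, 3.30 and 5.67 in the larva, against 2.39, 2.69 and 2.50 at hatching. For miR-199 it was -4.74, -4.70 and -4.13 in the larva, against -5.07, -5.36 and -4.99 at hatching, and for miR-27c it was 4.87, 5.04 and 5.57 in the larva, against 4.80, 4.40 and 4.63 at hatching. In each the 3p arm weighed more in the larva. For miR-140 the ratio was 3.59, 3.28 and 3.26 in the larva, against 3.41, 3.17 and 3.28 at hatching, with overlap. The ratio of miR-17 was -2.58, -2.77 and -2.96 in the larva, against -2.21, -2.68 and -2.08 at hatching, and that of miR-182 was -4.41, -4.68 and -5.27 in the larva, against -4.84, -5.30 and -5.22 at hatching, both with overlap.

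Predicted small RNAs gave 24 of the 49 calls, among them the 10 sequences shown above. predicted-17, the most abundant of the 10, measured 17293, 17309.5 and 13288 CPM in the larva, against 8825, 6082 and 7526 CPM at hatching (log2 fold change 1.09 ± 0.19 SE, adjusted p = 0.0276). predicted-8 measured 783, 965 and 1533 CPM in the larva, against 271, 216 and 241 CPM at hatching (log2 fold change 2.17 ± 0.29 SE, adjusted p = 0.0208). predicted-2 measured 858, 1019.9 and 1236 CPM in the larva, against 220.4, 163 and 179.7 CPM at hatching (log2 fold change 2.47 ± 0.20 SE, adjusted p = 0.0108), and predicted-1 measured 344, 379 and 390.5 CPM in the larva, against 79.8, 83.6 and 77.6 CPM at hatching (log2 fold change 2.21 ± 0.12 SE, adjusted p = 0.00181). All 4 had larva libraries above every hatching library, and predicted-1 had the lowest adjusted p of all 612.

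predicted-13 measured 1641, 2156 and 1419.7 CPM in the larva, against 5709.6, 9142 and 4802 CPM at hatching (log2 fold change -1.91 ± 0.31 SE, adjusted p = 0.0274). predicted-12, which differs from it by 1 base, T13C counted from the 5′ end with the base of predicted-12 first, measured 128, 183 and 118 CPM in the larva, against 467, 675 and 397 CPM at hatching (log2 fold change -1.84 ± 0.28 SE, adjusted p = 0.0256). Their reads could be shared, and with 3 further sequences they have the seed GTGCAAA. The summed level of this seed was 1785, 2335 and 1526 CPM in the larva, against 5948, 10143 and 5270.4 CPM at hatching (log2 fold change -1.92 ± 0.31 SE, adjusted p = 0.0218). Seed sums were scaled by TMM factors of their own fit, so their CPM are not on the scale of the single sequences. predicted-5 measured 136, 139 and 122 CPM in the larva, against 596, 398 and 398 CPM at hatching (log2 fold change -1.81 ± 0.21 SE, adjusted p = 0.0193), and predicted-9 measured 357, 298 and 233 CPM in the larva, against 748, 737 and 768 CPM at hatching (log2 fold change -1.34 ± 0.18 SE, adjusted p = 0.0208). In all 4, every larva library was below every hatching library.

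predicted-6 was listed in no larva library, against 395, 686 and 775 counts at hatching (adjusted p = 0.0208). No larva library lists a sequence that holds it or lies within it. Sequences that overlap it only in part were not looked for. Its fitted fold change depends on the value put in place of the unlisted counts and is not given.

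Counts were also summed over all predicted sequences with the same seed, which joins rows that differ at the 3′ end but not rows that differ at the 5′ end. The TMM factors were computed anew for this fit, so a sum can read lower in CPM than its largest sequence above. Of 428 such seeds 15 passed the threshold, which is 3.5%, with p adjusted over seeds and named microRNAs together. The 6 sequences with the seed GAGGTAG summed to 833, 1023 and 1567 CPM in the larva, against 263, 249 and 243 CPM at hatching (log2 fold change 2.18 ± 0.26 SE, adjusted p = 0.0151). The 4 with the seed CCCTGAG summed to 17368, 17290.5 and 13192 CPM in the larva, against 8458, 6288 and 7588 CPM at hatching (log2 fold change 1.10 ± 0.17 SE, adjusted p = 0.0209). In both sums the larva libraries lay above every hatching library, and most of the sum was the single sequences predicted-8 and predicted-17. Without larva 3, 36 seeds passed, and without hatching 3 none did, while without larva 2, hatching 1 or hatching 2 the counts were 2, 4 and 2.

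Part of the difference between stages in the predicted rows lies in how they are listed. Of 2149 predicted sequences, 1118 are listed in 1 library alone and 267 in all 6. Of them, 544 hold or lie within another listed sequence, in 246 groups. In 68 of these groups one sequence is listed in larva libraries only and another in hatching libraries only. A sequence listed in 1 library alone also counts here as listed in 1 stage only, and splits within a stage were not counted. The RNAs called A, B and C here show listing under different lengths, with capitals for the end bases that the shortest sequence lacks.
RNA A, 20 bases: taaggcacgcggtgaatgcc
RNA A, 21 bases: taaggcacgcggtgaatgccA
RNA A, 22 bases: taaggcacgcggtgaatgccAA
RNA B, 23 bases: tacattcattgatgtcgttgggt
RNA B, 24 bases: tacattcattgatgtcgttgggtT
RNA C, 21 bases: aaagtgctatcaagttcgggt
RNA C, 22 bases: aaagtgctatcaagttcgggtA
In RNA A, larva 3 lists the 20-base form alone with 21998 counts, larva 2 the 21-base form with 11751 and larva 1 the 22-base form with 9909. The hatching libraries list the 22-base form with 6317, 4510 and 4148 counts. RNA B has 191, 269 and 596 counts of the 23-base form in the larva and none listed at hatching, against 149, 102 and 109 counts of the 24-base form at hatching and none listed in the larva. Each form of RNA B passed the threshold, predicted-7 as higher and predicted-4 as lower in the larva.

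With the largest count of each group standing for it, a setting added after seeing the data, 43 of 646 passed, which is 6.66%. RNA A then rose by 1.27 ± 0.20 (SE; adjusted p = 0.0272), and RNA B stood at 1.24 ± 0.34 SE, adjusted p = 0.0851. RNA C, whose 22-base form predicted-3 had passed as lower, stood at -2.11 ± 1.39 SE, adjusted p = 0.455. Of the 24 predicted calls, 7 lay in a group of overlapping sequences, and merging changes the counts of these alone. After merging 18 of the 24 passed, and all 6 lost were among these 7. The 6 included predicted-18 (0.61 ± 0.21 SE, adjusted p = 0.158), which lies within a more abundant sequence. The other 9 sequences shown at the start kept their calls, and among named microRNAs miR-183 (0.0506) and miR-10d (0.0539) missed the adjusted p of 0.05.

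**Figure D5:**
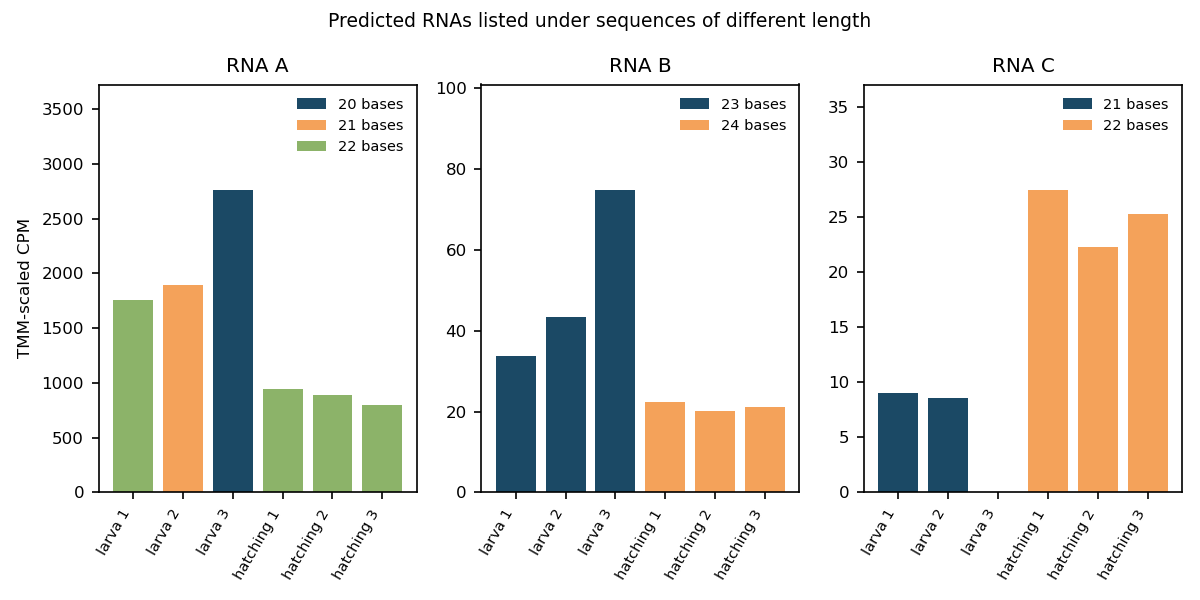
Level of 3 predicted RNAs in each library (TMM-scaled CPM, axis from 0), larva left and hatching right, coloured by the length of the listed sequence. Each library lists 1 length of RNA A, B and C, except that larva 3 lists none of RNA C, and the lengths of RNA B and RNA C separate the stages completely.

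The 10 most abundant small RNAs of a library took a smaller share of its counts in the larva. Their share was 50.4%, 51.5% and 51.0% in the larva, against 53.6%, 56.8% and 53.7% at hatching. The stages did not overlap and differed by -3.78 percentage points, with an exact permutation test (two-sided) at 0.1, the smallest value that the design allows. At hatching miR-430 ranked 3, and in the larva it ranked 21.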

How the data were processed

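Small RNA of 3 larva and 3 hatching libraries was compared. Raw read counts for each microRNA in each library, and a table of TPM values, were deposited by the authors. Per the labels' protocols, RNA was extracted with TRIzol and sequenced from one end on an Illumina instrument. FastQC and edgeR were used, per the submitters' processing notes. How reads were aligned, to which genome build, and how microRNAs were predicted is not given in the sources used here. Deposited TPM values were used only for library totals, of which the listed counts are 97.4% to 97.9%. No sequences of the named microRNAs and no genome positions were used.

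Counts were TMM-scaled, filtered with filterByExpr (count minimum 10) and fitted on the 6 libraries with edgeR 4.0.16 (glmQLFit, robust, and glmQLFTest) in R 4.3.3. Residual degrees of freedom were 4, and the common coefficient of biological variation was 0.807. Benjamini-Hochberg adjustment ran over all 612, with 0.05 as the threshold. Each standard error is the size of the log2 fold change divided by the root of its F. Named microRNAs below the filter were miR-132b and miR-7132, while miR-132a and miR-142-3p had no counts under their names. Rare rows are limited by depth, since 1 CPM stood for 5.65 to 7.97 counts in the larva libraries, against 5.07 to 6.67 counts in the hatching libraries. Intervals and errors treat reads as counted, without molecular identifiers. Replicates differed by more than sampling noise (chi-square per degree of freedom at least 66.7), so none was taken as a second sequencing of the same library. That value cannot tell separate samples from separate libraries of the same RNA pool.

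The microRNAs named are (a) the 10 largest rises and 10 largest falls among named ones past the threshold whose mean reached 100 CPM in either stage and whose stages did not overlap, (b) the 2 members of each list with the highest mean, (c) the 10 most abundant of all, (d) the 5 largest rises and 5 largest falls among predicted ones under the conditions of (a), and (e) both arms of hairpins with an arm past the threshold. Others named were chosen after their values were seen. Lists were written by family number and hold named microRNAs only. They and the comparison were chosen with earlier results of these data known. No list was tested as a set. Alternatives used limma 3.58.1 and DESeq2 1.42.0. The fit was tested on simulated counts whose set variation was below the common variation of the data, so that test does not speak for data this variable. Figures were drawn with matplotlib 3.10.9.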

Additional observations from a re-analysis of the deposited data

How the results depend on the processing

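Of the 49 calls, 48 held with RLE size factors, library totals or the totals behind the TPM values, 47 with DESeq2, 43 with at least 10 CPM in 3 libraries, 40 with limma voom, 35 with no filter, 41 with overlapping sequences merged and 49 with unlisted predicted counts taken as 4, the last 2 added after seeing the data. Of the 25 named calls 21 held with named microRNAs alone, and none of the 49 changed direction in any setting that tested it as its own row. After merging, predicted-4 was not tested as its own row. Its group, RNA B, then stood at 1.24, while predicted-4 had been called lower. The number called was 116 with DESeq2 (72 higher, 44 lower), 77 with at least 10 CPM in 3 libraries (44 higher, 33 lower), 77 with named microRNAs alone (37 higher, 40 lower) and 1, lower, in the fit of all 18 libraries (0 higher, with 46 at an unadjusted p under 0.05). Taking unlisted predicted counts as 4 gave 68 (41 higher, 27 lower). That setting does not join sequences of different length, so it cannot speak for calls such as those of RNA B. Leaving out 1 library gave 2 to 73 called, 2 to 46 higher, 0 to 27 lower and 0 to 36 seeds. The difference in the share of the 10 most abundant microRNAs was -3.59 percentage points against the totals behind the TPM values, -3.78 after thinning and between -4.34 and -2.72 with 1 library left out. The causes of these shifts were not tested.

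Larva and hatching libraries share replicate numbers. With the number as a replicate block, edgeR called 0 small RNAs (0 higher, 0 lower) and 0 seeds, with 110 at an unadjusted p under 0.05 and 2 residual degrees of freedom left. Same-numbered libraries deviated together with correlations of 0.02, 0.10 and -0.09, and not every library correlated best with its own number, so the numbers were not taken as pairs.

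Over all 142 named microRNAs, 93 stood above 0, against 66 with named microRNAs alone. Among those named in the text the sign turned for 15, none past the threshold. With named microRNAs alone the log2 fold changes were -0.33 for miR-126-3p, -0.21 for miR-126-5p, -0.33 for miR-130b, -0.31 for miR-130c, -0.24 for miR-142-5p, -0.40 for miR-146a, -0.089 for miR-181b, -0.20 for miR-184, -0.21 for miR-200a, -0.31 for miR-206, -0.059 for miR-22a, -0.17 for miR-26a, -0.24 for miR-27c-5p and -0.017 for miR-30b. In the fit of all 18 libraries they were -0.24 for miR-126-3p, -0.14 for miR-126-5p, -0.26 for miR-130b, -0.22 for miR-130c, -0.11 for miR-142-5p, -0.37 for miR-146a, -0.020 for miR-181b, -0.089 for miR-184, -0.15 for miR-200a, -0.22 for miR-206 and -0.079 for miR-26a. With at least 10 CPM in 3 libraries they were -0.12 for miR-126-3p, -0.0018 for miR-126-5p, -0.12 for miR-130b, -0.096 for miR-130c, -0.017 for miR-142-5p, -0.19 for miR-146a, -0.0042 for miR-200a, -0.11 for miR-206 and -0.048 for miR-27c-5p. miR-146a stood at -0.064 with RLE size factors and DESeq2, -0.035 under library totals and -0.032 under the TPM totals. miR-130b stood at -0.0015 with RLE size factors and -0.0016 with DESeq2. With 1 library left out, miR-126-3p ranged between -0.0099 and 0.15, miR-130b between -0.014 and 0.089, miR-142-5p between -0.092 and 0.36, miR-146a between -0.26 and 0.37, miR-16b between -0.27 and 0.18, miR-206 between -0.041 and 0.19 and miR-27c-5p between -0.055 and 0.27.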

Other observations

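Seen over the 6 stages, several of the microRNAs named above were at different points of their course, given here as mean shares of all counts over 3 libraries (± SD). The libraries before hatching held 60779 to 438398 counts, far fewer than those compared above. miR-128 held 0.527% ± 0.153 at cleavage, 0.118% ± 0.0366 and 0.144% ± 0.0740 in blastocyst and gastrulation embryos, 0.214% ± 0.114 during organ formation, 1.15% ± 0.364 in hatching embryos and 2.50% ± 0.0563 in larvae. miR-140-3p held 0.0855% ± 0.0393 at cleavage, 0.0193% ± 0.0133 and 0.0579% ± 0.0313 in blastocyst and gastrulation embryos, 0.102% ± 0.00954 during organ formation, 0.217% ± 0.0237 in hatching embryos and 0.589% ± 0.184 in larvae. Both had their highest mean share in the larva. miR-10b held 0.670% ± 0.464 at cleavage, 0.423% ± 0.374 and 0.555% ± 0.345 in blastocyst and gastrulation embryos, 6.17% ± 3.23 during organ formation, 10.01% ± 0.383 in hatching embryos and 5.53% ± 0.909 in larvae, with its highest mean share at hatching. miR-122 held 0.172% ± 0.0832 at cleavage, 0.0314% ± 0.00465 and 0.0245% ± 0.0148 in blastocyst and gastrulation embryos, 0.00974% ± 0.00591 during organ formation, 0.0432% ± 0.00590 in hatching embryos and 0.247% ± 0.193 in larvae. Its cleavage share exceeded those of the 4 stages that follow and rested on 592 counts over the 3 cleavage libraries. let-7a held 1.15% ± 0.711 at cleavage, 0.110% ± 0.0726 and 0.209% ± 0.156 in blastocyst and gastrulation embryos, 0.256% ± 0.199 during organ formation, 0.107% ± 0.0178 in hatching embryos and 0.229% ± 0.0171 in larvae, so that its larva share stood below its cleavage share, which rested on 4076 counts.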
